A study of Mus musculus with 19 samples.

Results

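A set of 10 genes of the E2F and RB families were followed through meiotic initiation in mouse male germ cells: E2f1, E2f2, E2f3, E2f4, E2f5, E2f7, E2f8, Rb1, Rbl1 and Rbl2. They were chosen by symbol, as 10 of the 22419 protein-coding genes in the expression tables, by a rule that uses no measured value. Earlier results of these data were known when the set was chosen, and the study had reported E2f1 as bound and upregulated by STRA8. All 10 were over 1 TPM (a transcript level normalized to transcript length and library size) in at least 1 of the 7 RNA-seq libraries, 9 of them in every library. E2f8 passed this filter through its high-STRA8 libraries alone, so its difference from the other groups was built into its selection for testing.

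E2F proteins bind short GC-rich sites in promoters and set the transcription of genes for DNA replication and cell-cycle progression. E2F1, E2F2 and E2F3 are activators, E2F4 and E2F5 mostly repress together with the pocket proteins, and E2F7 and E2F8 are repressors that bind DNA without a DP partner and do not bind pocket proteins. The pocket proteins RB (Rb1), p107 (Rbl1) and p130 (Rbl2) restrain E2F until cyclin-dependent kinases phosphorylate them. Preleptotene spermatocytes are the germ cells that carry out the S phase before meiosis, and STRA8 is a germ cell protein induced by retinoic acid that these cells need to enter meiosis.

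RNA-seq compared 3 Stra8-deficient libraries (Stra8 knock-out), 2 low-STRA8 libraries and 2 high-STRA8 libraries (both Stra8 heterozygous), all from sorted preleptotene cells of C57BL/6 males. All 3 groups also carried 1 copy each of Ddx4-Cre, which drives recombination in germ cells, and of a Rosa26 tdTomato reporter used for sorting. Low-STRA8 and high-STRA8 testes were told apart by the study from STRA8 staining, as testes just before and after meiotic initiation. Stra8-deficient cells differ from both of these groups in genotype, so genotype and stage cannot be told apart in comparisons with them. A first or second step below is a difference between groups, not a course in time. FLAG ChIP-seq compared 3 Stra8 FLAG/FLAG mice, whose STRA8 carries an N-terminal tag, with 3 wild-type mice, in unsorted testes of a mostly C57BL/6 background. All mice received WIN18,446, an inhibitor of retinoic acid synthesis, from postnatal day 2 to 8 and retinoic acid on day 9, and testes were collected about 6.75 days later. In these bulk libraries, fewer cells of a type and less RNA per cell cannot be told apart.

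RNA libraries held 25049625 to 30015072 estimated counts. Stra8 itself was measured at 18.0, 22.8 and 5.16 TPM in Stra8-deficient cells, at 315 and 236 TPM in low-STRA8 cells and at 1099 and 1248 TPM in high-STRA8 cells, in the order of the labels. All 7 germ cell markers were over 1 TPM, with a summed level of 2491 to 3888 TPM in Stra8-deficient, 2813 to 3386 TPM in low-STRA8 and 6210 to 6620 TPM in high-STRA8 libraries. Without Stra8 itself the other 6 summed to 2486 to 3870, 2578 to 3071 and 5110 to 5372 TPM. From Stra8-deficient to high-STRA8 cells Dazl, Stra8, Sycp3 and Dmc1 rose, Rec8 fell and the remaining 2 were not called. Markers of pachytene and later germ cells summed to at most 2.42 TPM in any library, with Pgk2 and Acr at 0. The 12 Sertoli cell markers, of which Dmrt1 is also a spermatogonial gene, summed to 852 to 1748 TPM and overlapped between the groups. Markers of undifferentiated spermatogonia, 8 of 10 over 1 TPM, summed to 78.3 to 96.2 TPM in Stra8-deficient, 36.1 to 40.1 TPM in low-STRA8 and 41.1 to 44.7 TPM in high-STRA8 libraries. Macrophage and blood markers summed to 10.8 to 33.7, 46.3 to 52.1 and 1.90 to 8.88 TPM in the same order. The most abundant were the hemoglobin genes Hbb-bs (0.327 to 27 TPM) and Hba-a1 (0.366 to 18.1 TPM). Of the 8 tested, only these were called higher in low-STRA8 than in Stra8-deficient cells. The median log2 fold change of the 8 in that comparison was -1.63. Leydig cell markers summed to 6.96 to 32.7 TPM over all libraries, and peritubular and endothelial markers to 53.8 to 95.6 TPM.

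Sequences at the starts of the members were examined for an E2F site, taken as the words TTTCCCGC, TTTCGCGC, TTTGCCGC and TTTGGCGC on either strand (none of which contains another or the CNCCTCAG motif below). Within 200 bases either side of a transcription start site (TSS), 6 of the 10 members held such a word: E2f1, E2f2, E2f3, E2f8, Rb1 and Rbl1. The share over all genes over 1 TPM was 6.59%, and over all 22100 genes with a TSS 4.51%. In the 2 kb around a TSS, E2f7 joined them and 7 of 10 members held a word, against 15.9% of the expressed genes. The words nearest to the starts are shown because they give the E2F site at the members' own starts, as the mm10 (GRCm38.p6) genome reads on the strand of the word, with the word in capitals.
E2f1, chr2:154569857-154569886: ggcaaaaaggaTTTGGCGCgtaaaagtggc
E2f1, chr2:154569870-154569899: gccaaatccttTTTGCCGCgaaagagccac
E2f2, chr4:136172302-136172331: gcggcatatagTTTGGCGCtaaaaaaaaaa
E2f3, chr13:29986056-29986085: cgaaactcagaTTTCCCGCcggcttttcaa
E2f7, chr10:110745230-110745259: acgcgggagcgTTTCCCGCggggacgcggg
E2f8, chr7:48881193-48881222: cgatttaaaaaTTTGGCGCggaaagcggga
E2f8, chr7:48881322-48881351: gaaggcggccgTTTCCCGCctcccgccccg
Rb1, chr14:73325802-73325831: ggaagtgacgtTTTCCCGCggttggcccgg
Rbl1, chr2:157204534-157204563: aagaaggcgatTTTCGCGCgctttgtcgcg

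The E2f1 windows overlap, with words on opposite strands 20 and 7 bases after the start of its main transcript. The word of E2f2 lay 77 bases before its start, that of E2f3 lay 8 bases before the outer of its 2 starts, and that of Rbl1 lay 37 bases before its start. The Rb1 word lay 5 bases after its start. E2f4, E2f5 and Rbl2 had none of these words in the 2 kb around their starts. A match is only these letters in this window, and E2F binding was not measured here.

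E2f1 (chr2:154559407-154569892, minus strand), the activator best known for driving G1-S genes, rose in high-STRA8 cells against both other groups. Its level was 33.5, 50.9 and 30.8 TPM in Stra8-deficient cells, 62.3 and 46.0 TPM in low-STRA8 cells and 109 and 106 TPM in high-STRA8 cells. Both high-STRA8 libraries stood above all others, while the low-STRA8 and Stra8-deficient libraries overlapped. High-STRA8 cells had 2.96-fold the E2f1 of Stra8-deficient cells (log2 fold change 1.56 ± 0.201 SE, adjusted p = 0.000699, edgeR quasi-likelihood test with Benjamini-Hochberg adjustment over 12455 genes, as for all adjusted p-values here). They had 1.84-fold that of low-STRA8 cells (log2 0.88 ± 0.224, adjusted p = 0.0158), a call that ended without low-STRA8 replicate 2 (adjusted p = 0.0740), high-STRA8 replicate 1 (0.0765) or high-STRA8 replicate 2 (0.0803). Low-STRA8 cells had 1.61-fold that of Stra8-deficient cells (log2 0.69 ± 0.202, adjusted p = 0.0407), but 9 of 17 alternatives ended this call. Among them were leaving out Stra8-deficient replicate 1 or 3 (adjusted p = 0.122 and 0.0836), low-STRA8 replicate 1 (0.169) or high-STRA8 replicate 1 or 2 (0.0793 and 0.0785). Of its summed TPM, 88.1% to 90.5% lay on 1 transcript (ENSMUST00000103145) in every library.

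E2f2 and E2f3, the other activators, did not rise. E2f2 (chr4:136172394-136196057, plus strand) was measured at 36.2, 40.4 and 32.6 TPM in Stra8-deficient, 28.3 and 26.3 TPM in low-STRA8 and 29.2 and 26.9 TPM in high-STRA8 cells. All heterozygous libraries lay below all Stra8-deficient ones, yet the difference of high-STRA8 from Stra8-deficient cells was not called (log2 fold change -0.28 ± 0.106, adjusted p = 0.0674). It was called on TPM with limma (adjusted p = 0.0404). E2f3 (chr13:29906575-29986063, minus strand) was measured at 46.2, 37.7 and 34.5 TPM, then 28.9 and 28.9 TPM, then 29.6 and 27.0 TPM in the same order of groups. E2f3 fell by 0.41 on the log2 scale from Stra8-deficient to high-STRA8 cells (SE 0.121, adjusted p = 0.0277). This call was lost when high-STRA8 replicate 1 (0.0991) or 2 (0.204) was left out. Undifferentiated spermatogonia markers, given above, were also highest in Stra8-deficient cells, and their part in these values was not tested.

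E2f3 has 2 annotated starts, 1672 bases apart on the minus strand of chromosome 13, which give a longer and a shorter E2F3 protein. The transcript from the outer start (ENSMUST00000102948) was estimated at 13.7, 15.2 and 11.0 TPM in Stra8-deficient, 9.02 and 8.32 TPM in low-STRA8 and 5.61 and 5.78 TPM in high-STRA8 cells. Its values stepped down across the 3 groups without overlap. The 2 transcripts from the inner start summed to 32.4, 22.6 and 23.5 TPM, then 19.9 and 20.5 TPM, then 24.0 and 21.2 TPM, and the high-STRA8 and Stra8-deficient libraries overlapped. The outer start thus gave 29.7% to 40.2% of the E2f3 TPM in Stra8-deficient libraries and 18.9% to 21.4% in high-STRA8 libraries. These transcript levels are estimates from shared exons and were not tested, and the outer transcript was singled out after its values were seen.

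**Figure D1:**
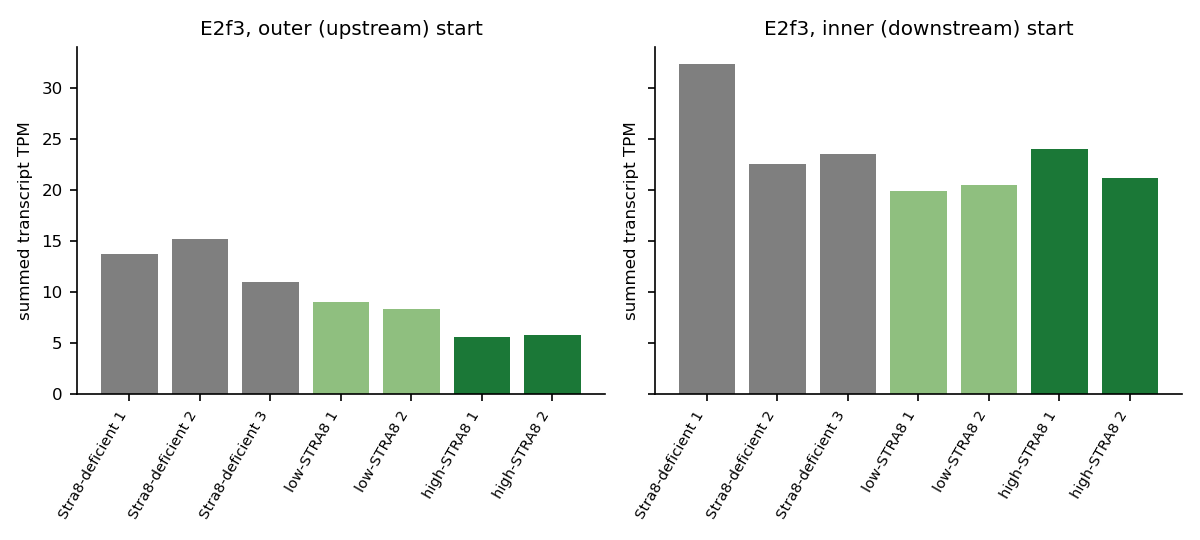
Summed transcript TPM of E2f3 by annotated start, with a bar for each library and the same y axis in both panels (gray, Stra8-deficient; light green, low-STRA8; dark green, high-STRA8). Transcripts from the outer start go from 11.0 to 15.2 TPM in Stra8-deficient libraries down to 5.61 and 5.78 TPM in high-STRA8 libraries, while those from the inner start overlap between these groups.

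E2f4 and E2f5, the E2Fs that partner pocket proteins in resting cells, moved in opposite directions. E2f4 (chr8:105297663-105305370, plus strand) was measured at 66.9, 75.5 and 69.7 TPM in Stra8-deficient, 72.4 and 72.0 TPM in low-STRA8 and 111 and 117 TPM in high-STRA8 cells, so that only the high-STRA8 libraries stood apart. It rose 1.72-fold from Stra8-deficient to high-STRA8 cells (log2 0.78 ± 0.0971, adjusted p = 0.000624) and 1.46-fold from low-STRA8 to high-STRA8 cells (log2 0.55 ± 0.108, adjusted p = 0.00575). The latter was lost when high-STRA8 replicate 2 was left out (0.0650). From Stra8-deficient to low-STRA8 cells E2f4 was not called (log2 0.23 ± 0.0981, adjusted p = 0.123).

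E2f5 (chr3:14578641-14606309, plus strand) was the most abundant member in all 3 groups, at 216, 191 and 168 TPM in Stra8-deficient, 170 and 162 TPM in low-STRA8 and 138 and 147 TPM in high-STRA8 cells. It fell by 0.35 on the log2 scale from Stra8-deficient to high-STRA8 cells (SE 0.102, adjusted p = 0.0266) and by 0.34 from low-STRA8 to high-STRA8 cells (SE 0.111, adjusted p = 0.0382). The first call ended without Stra8-deficient replicate 2 (0.0541), high-STRA8 replicate 1 (0.203) or high-STRA8 replicate 2 (0.121), and the second under 10 of 17 alternatives, among them leaving out Stra8-deficient replicate 2 (0.0552), either low-STRA8 library (0.0717 and 0.0958) or either high-STRA8 library (0.217 and 0.138). The main transcript (ENSMUST00000029069) was estimated at 186, 189 and 138 TPM, then 147 and 140 TPM, then 138 and 147 TPM, with overlap between all groups. A second transcript (ENSMUST00000165922, named after its values were seen) starts 30 bases downstream and was estimated at 29.3, 2.16 and 30.8 TPM in Stra8-deficient, 22.1 and 22.6 TPM in low-STRA8 and 0.206 and 2.44e-09 TPM in high-STRA8 cells. Estimates for transcripts this alike share most reads, and the split between them was not tested.

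E2f7 and E2f8, the atypical repressors, were the least abundant of the 7 E2f members and rose in high-STRA8 cells against both other groups. E2f7 (chr10:110745465-110787384, plus strand) was measured at 6.31, 6.99 and 7.23 TPM in Stra8-deficient, 6.31 and 4.32 TPM in low-STRA8 and 10.7 and 10.6 TPM in high-STRA8 cells. It rose 1.65-fold over Stra8-deficient cells (log2 0.73 ± 0.152, adjusted p = 0.00669; 0.0754 without high-STRA8 replicate 1) and 1.85-fold over low-STRA8 cells (log2 0.88 ± 0.170, adjusted p = 0.00520). The high-STRA8 libraries lay above the other 5 libraries, which overlapped.

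E2f8 (chr7:48866429-48881596, minus strand) was measured at 0.734, 0.708 and 0.594 TPM in Stra8-deficient, 1.0 and 0.473 TPM in low-STRA8 and 3.81 and 3.26 TPM in high-STRA8 cells. These levels rest on 30 to 36, 23 to 51 and 150 to 179 estimated counts. The high-STRA8 level was 5.46-fold that of Stra8-deficient cells (log2 2.45 ± 0.325) and 4.52-fold that of low-STRA8 cells (log2 2.18 ± 0.370). Since E2f8 met the 1 TPM filter through those libraries alone, its adjusted p-values are given from the edgeR fit with no filter on TPM, over 18227 genes: 0.000179 (log2 2.45 ± 0.326) and 0.00133 (log2 2.19 ± 0.371). Low-STRA8 and Stra8-deficient libraries overlapped for both atypical E2Fs. The log2 fold changes were -0.16 (E2f7, adjusted p = 0.495) and 0.27 (E2f8, adjusted p = 0.660 with no filter on TPM).

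Among the pocket proteins, Rbl1 was higher in both heterozygous groups than in Stra8-deficient cells, Rbl2 was higher in high-STRA8 cells alone and Rb1 was not called. Rbl1 (p107; chr2:157145893-157204512, minus strand) was measured at 24.3, 15.7 and 18.4 TPM in Stra8-deficient, 29.9 and 28.5 TPM in low-STRA8 and 32.3 and 32.0 TPM in high-STRA8 cells. It was the only member whose TPM rose without overlap at both steps, as 4.67% of all genes tested did. The first step was called, at 1.71-fold (log2 0.77 ± 0.161, adjusted p = 0.0123), and the second was not, at 1.03-fold (log2 0.042 ± 0.177, adjusted p = 0.877). High-STRA8 cells had 1.76-fold the Rbl1 of Stra8-deficient cells (log2 0.81 ± 0.161, adjusted p = 0.00520).

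Rbl2 (p130; chr8:91070057-91123844, plus strand), the pocket protein of resting cells, was measured at 2.72, 3.48 and 2.94 TPM in Stra8-deficient, 3.46 and 1.42 TPM in low-STRA8 and 4.83 and 6.11 TPM in high-STRA8 cells. Its high-STRA8 libraries were above all others, at 1.94-fold Stra8-deficient cells (log2 0.96 ± 0.328, adjusted p = 0.0494) and 2.11-fold low-STRA8 cells (log2 1.08 ± 0.369, adjusted p = 0.0472). Both calls were close to the threshold and ended under 10 and 8 of 17 alternatives, with an adjusted p of 0.272 and 0.225 without high-STRA8 replicate 2. Leaving out any Stra8-deficient library or high-STRA8 replicate 1 ended both calls as well (0.0833 to 0.136 and 0.0627 to 0.0893), and leaving out low-STRA8 replicate 2 ended the second (0.111). Rb1 (chr14:73195502-73325822, minus strand) was measured at 93.7, 61.9 and 58.4 TPM, then 61.1 and 55.9 TPM, then 68.0 and 71.8 TPM. Stra8-deficient replicate 1 stood above all other libraries, and without it the difference between high-STRA8 and Stra8-deficient cells was called, at a log2 fold change of 0.29 (adjusted p = 0.0398), against 0.060 ± 0.178 (adjusted p = 0.817) with it.

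**Figure D2:**
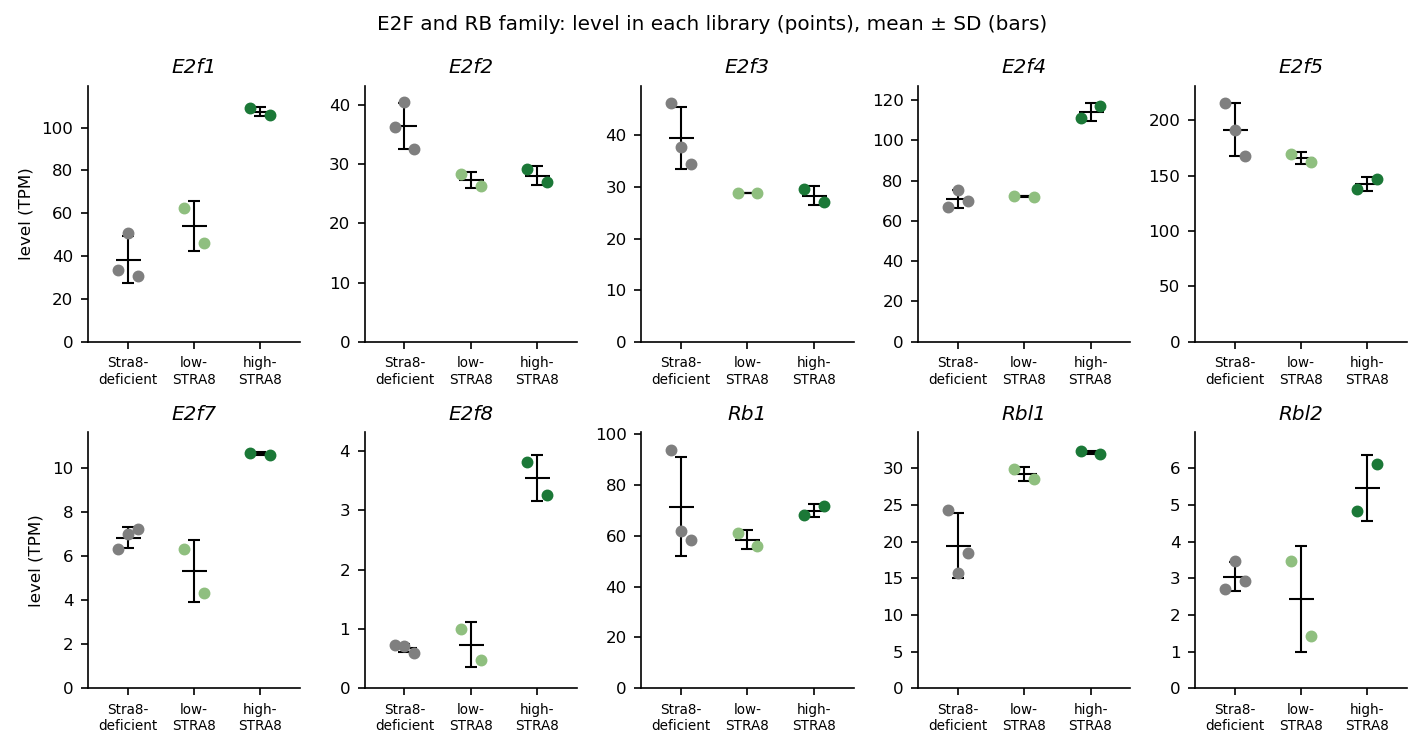
Level of each member (TPM, y axis from 0) by group, with a point for each library and bars for the mean ± SD (n = 3, 2 and 2). The high-STRA8 points lie above all others for E2f1, E2f4, E2f7, E2f8, Rbl1 and Rbl2, and below all others for E2f5.

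Counted together, 6 of 10 members rose from Stra8-deficient to high-STRA8 cells, where 18.9% of all genes tested did, and 2 of 10 fell, where 18.3% did. From low-STRA8 to high-STRA8 cells, 5 of 10 rose (background 21.3%) and 1 of 10 fell (18.2%). Without E2f8, whose rise in high-STRA8 cells was built into its passing the filter, 5 of 9 rose and 2 fell in the first comparison, and 4 of 9 rose and 1 fell in the second. From Stra8-deficient to low-STRA8 cells, 2 of 10 rose, E2f1 and Rbl1 (10.2%). None fell by edgeR at this step (13.9% of all genes did), with 0 at an unadjusted p under 0.05, 0 by DESeq2 and 1 by limma on TPM. The 5 members that rose in high-STRA8 cells against both other groups were E2f1, E2f4, E2f7, E2f8 and Rbl2 (12.1% of all genes). Without E2f8 these are E2f1, E2f4, E2f7 and Rbl2. The median log2 fold change of the 10 members was 0.75 for high-STRA8 against Stra8-deficient cells, 0.35 for high-STRA8 against low-STRA8 cells and -0.053 for low-STRA8 against Stra8-deficient cells, beside -0.017, 0.0043 and 0.025 over all genes tested. Without E2f8 the medians were 0.73, 0.16 and -0.10. By TPM alone, 6 members had every high-STRA8 library above every Stra8-deficient one (27.9% of all genes) and 3 below (39.3%), 7 had every high-STRA8 library above every low-STRA8 one (44.1%) and 1 below (30.4%), and 1 had every low-STRA8 library above every Stra8-deficient one (12.1%) and 2 below (39.4%). E2f8, which passed the filter through its high-STRA8 libraries alone, is among these 6 and 7. The summed germ cell markers were also highest in high-STRA8 libraries, with and without Stra8, and their part in the members' values was not tested. The study names Dazl, Sycp3 and Dmc1 among genes that STRA8 upregulates, so this sum does not measure the share of germ cells alone. The first 2 comparisons share the high-STRA8 libraries and all 3 come from the same 7 libraries.

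On the TPM scale the median gene was lower in low-STRA8 libraries than in the others: it moved by -0.15 (log2) from Stra8-deficient to low-STRA8 cells and by 0.11 from low-STRA8 to high-STRA8 cells. The low-STRA8 levels in TPM given above are to be read against that shift. Of all calls, 50.8%, 53.9% and 42.3% were higher by edgeR for high-STRA8 against Stra8-deficient, high-STRA8 against low-STRA8 and low-STRA8 against Stra8-deficient cells, and 40.5%, 63.5% and 15.6% by limma on TPM.

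**Figure D3:**
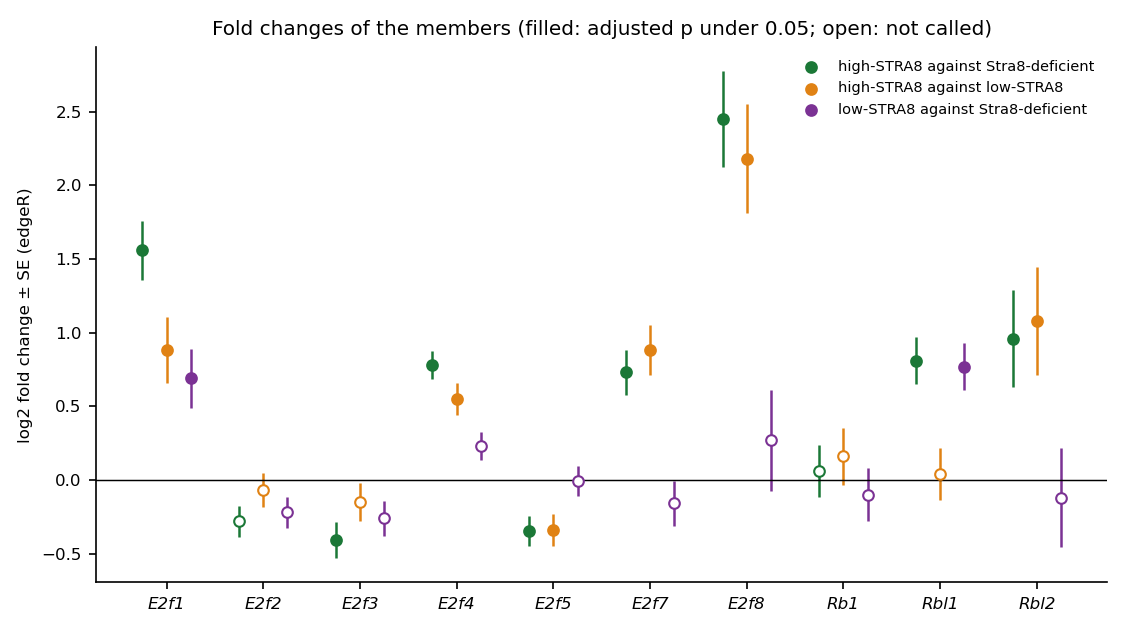
Log2 fold change ± SE of each member by edgeR (y axis) in the 3 comparisons, with filled points for an adjusted p under 0.05 and open points for the rest. E2f8 and E2f1 lie at 2.45 and 1.56 for high-STRA8 against Stra8-deficient cells, and Rbl1 has a called value for low-STRA8 against Stra8-deficient cells (0.77) beside an open one at 0.042.

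The order of levels within the family also differed between the groups. In Stra8-deficient cells E2f5 (mean 192 TPM) was followed by Rb1 (71.3 TPM) and E2f4 (70.7 TPM), whose libraries overlapped, and then by E2f3, E2f1 and E2f2 (39.5, 38.4 and 36.4 TPM), whose neighbours overlapped as well. In high-STRA8 cells the order was E2f5 (143 TPM), E2f4 (114 TPM), E2f1 (107 TPM) and Rb1 (69.9 TPM), with no overlap between these neighbours, and E2f3 and E2f2 (28.3 and 28 TPM) came after Rbl1. E2f6 was not among the members and is left out of these shares. Of the summed TPM of the 7 E2f members, E2f1 held 8.26% to 12.6% in Stra8-deficient, 13.5% to 16.9% in low-STRA8 and 24.1% to 25.2% in high-STRA8 libraries. E2f5 held 47.4% to 53.2%, 46.0% to 47.7% and 32.0% to 33.6%. Among pocket protein TPM, Rbl1 held 19.4% to 23.1% in Stra8-deficient libraries and 29.1% to 33.2% in the heterozygous ones.

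FLAG ChIP placed STRA8 summits within 1 kb of a TSS of 5 members in at least 2 of 3 FLAG/FLAG libraries: E2f1, E2f3, E2f5, E2f7 and Rbl1. Of all 12486 genes over 1 TPM with a TSS, 22.5% met this rule (12.9% of all genes with a TSS), which also asks for no summit in a wild-type library. None of the 3 wild-type libraries, with 798, 45 and 164 summits in all, had a summit at any member. FLAG/FLAG libraries had 5687, 3299 and 2035 summits, and replicate 3 of each genotype was made with a different library kit. E2f1 and Rbl1 had a summit in all 3 FLAG/FLAG libraries (11.9% of expressed genes, 6.79% of all genes), and leaving out replicate 1 or replicate 2 left these 2 members. E2f4, E2f8 and Rb1 had a summit in 1 library, so that 8 of 10 members had a summit in at least 1 library (38.3% of expressed genes, 22.1% of all genes). E2f2 and Rbl2 had none.

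Rbl1 had the summits of highest score (−log10 p from MACS2) among the members. They lay 155 bases upstream of the TSS in replicate 1 (score 38.6, above 88.6% of the summits of that library), 55 bases downstream in replicate 2 (17.2, above 65.6%) and 56 bases downstream in replicate 3 (24.6, above 79.6%). E2f1 has 2 starts, the outer being that of its main transcript. It had a summit between them in replicate 1, 62 bases upstream of the inner start (score 27.0, above 79.5%). In replicate 2 it had a pair, 191 bases downstream of the inner start (11.2) and 140 bases upstream of the outer start (9.06), and in replicate 3 a summit 180 bases upstream of the outer start (8.48). Its scores in replicates 2 and 3 were thus in the lower part of their libraries.

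E2f7 had summits 204 and 280 bases upstream of its outermost start (scores 15.4 and 12.3), and the word shown above lay 16 bases from the former. E2f5 had summits 6 bases on either side of the start of its second transcript (scores 17.9 and 8.04). The start of its main transcript lies just upstream, and the summits were not assigned to either transcript. Those of E2f3 lay 497 and 418 bases upstream of the inner start (14.5 and 7.62), which is 1175 and 1254 bases downstream of the outer start, outside the 1 kb window of the transcript that stepped down. With a score of 10 or more asked of each summit, E2f1, E2f7 and Rbl1 remained. The single summits of Rb1 (33 bases downstream of the start, score 20.3) and E2f8 (260 bases upstream of the inner start, 9.06) lay 28 and 36 bases from an E2F word. In all, 3 members (E2f7, E2f8 and Rb1) had a word within 50 bases of a summit, each in 1 library only. Over all promoter summits of the FLAG/FLAG libraries, 1.92%, 2.49% and 3.28% had a word in 100 bp, a share of summits and not of genes.

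**Figure D4:**
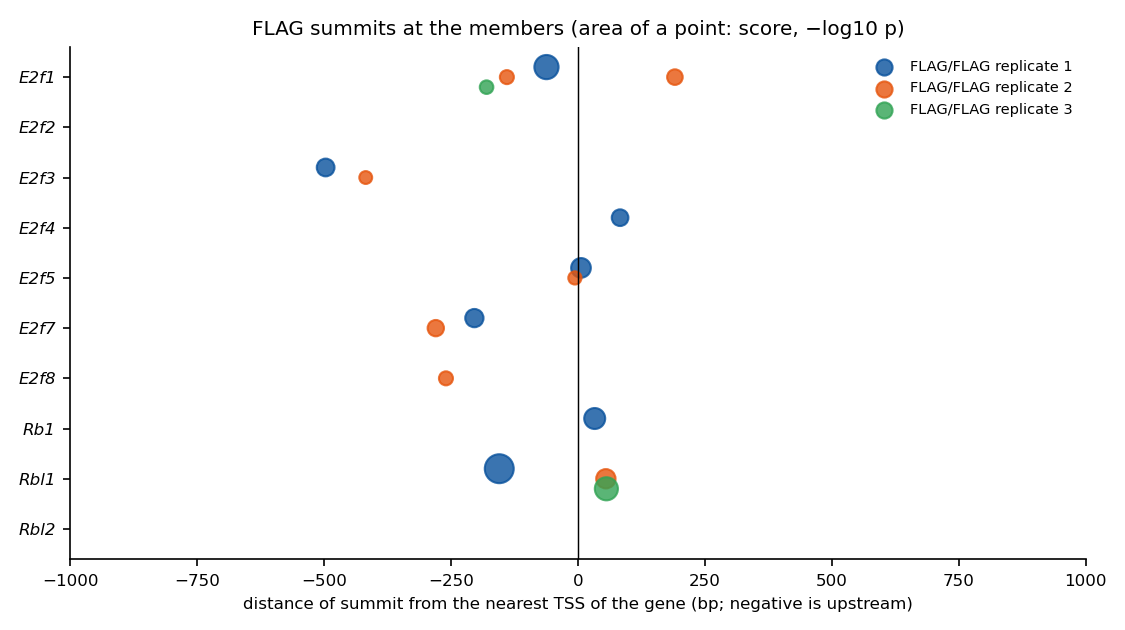
FLAG summits within 1 kb of the members' starts, with distance from the nearest TSS in bp on the x axis, a row for each gene, a color for each FLAG/FLAG replicate and an area in proportion to the score. Rbl1 and E2f1 have summits in all 3 replicates, E2f3, E2f5 and E2f7 in replicates 1 and 2, and E2f2 and Rbl2 have none.

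The bases before the RefSeq starts of Rbl1 and E2f7 are shown because a replicate 1 summit of each lay inside them (250 bases, GRCm38.p6, read on the strand of the gene, with E2F words in capitals). Of the members, E2f1, E2f2, E2f3, E2f7, E2f8, Rbl1 and Rbl2 were matched in the RefSeq promoter table, and E2f4, E2f5 and Rb1 were not.
Rbl1, minus strand, chr2:157204535-157204784: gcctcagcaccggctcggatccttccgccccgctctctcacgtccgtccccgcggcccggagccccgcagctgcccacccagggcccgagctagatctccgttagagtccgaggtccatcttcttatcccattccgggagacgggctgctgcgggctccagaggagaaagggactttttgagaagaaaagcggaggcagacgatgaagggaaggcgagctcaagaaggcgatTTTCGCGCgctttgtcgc
E2f7, plus strand, chr10:110745189-110745438: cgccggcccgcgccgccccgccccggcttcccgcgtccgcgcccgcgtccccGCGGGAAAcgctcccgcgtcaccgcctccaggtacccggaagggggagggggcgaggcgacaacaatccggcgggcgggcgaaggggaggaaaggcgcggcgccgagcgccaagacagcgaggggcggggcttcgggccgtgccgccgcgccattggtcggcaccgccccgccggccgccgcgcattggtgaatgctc

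CNCCTCAG, the motif that the study links to STRA8, was found in the 2 kb around a TSS of 4 of 10 members (E2f1, E2f2, E2f3 and E2f4), beside 46.3% of expressed genes and 42.7% of all genes. Over all promoter summits of the FLAG/FLAG libraries, 10.5%, 14.1% and 15.6% had the motif in 100 bp, and 3 of 99, 0 of 9 and 0 of 16 in wild-type libraries.

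Of genes that rose from Stra8-deficient to high-STRA8 cells, 56.7% had a FLAG summit by the same rule, of genes that fell 7.0% and of genes not called 16.7%. Among the members, 3 of the 6 that rose (E2f1, E2f7 and Rbl1) and both that fell (E2f3 and E2f5) had one. E2f3 and E2f5 thus belong to the 159 genes that were lower in high-STRA8 cells with summits in at least 2 libraries. E2f4, E2f8 and Rbl2 rose without meeting the rule.

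The partners of the family changed in both directions. Of 10 genes for DP subunits, E2F6, the MuvB core and its B-MYB and FOXM1 partners, 4 rose and 3 fell from Stra8-deficient to high-STRA8 cells (median log2 fold change 0.35), where 18.9% of all genes rose and 18.3% fell. Lin9, a MuvB subunit, rose 1.89-fold (log2 0.92 ± 0.104, adjusted p = 0.000413), from a mean of 30.8 TPM to 55.1 TPM. Tfdp2, a DP subunit, rose 1.83-fold (adjusted p = 0.00171), and Lin52, which joins MuvB to pocket proteins, rose 2.05-fold (adjusted p = 0.00288). E2f6, Lin37 and Lin54 were called lower, but 0 were without high-STRA8 replicate 1 or replicate 2, 1 without Stra8-deficient replicate 1 and 1 with the replicate block.

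Of 19 genes for the kinases of pocket proteins, their cyclins, other regulators and inhibitors, 7 rose and 2 fell in that comparison (median 0.29). Those that rose were Ccne1, Ccne2, Cdk2 and Cdc25a, and the kinase inhibitor genes Cdkn1a, Cdkn2a and Cdkn2c. Those that fell were Ccnd1 and Cdk7. Of all genes, 18.9% rose and 18.3% fell. Leaving out either high-STRA8 library, or adding the replicate block, left 1 that fell. Ccne2 (cyclin E2) rose 8.81-fold, from 118, 94.6 and 58.9 TPM through 362 and 241 TPM to 754 and 740 TPM (log2 3.14 ± 0.253, adjusted p = 9.91e-05). Cdc25a, the phosphatase that activates CDK2, rose 3.45-fold (adjusted p = 7.87e-05). Ccnd1 (cyclin D1) went the other way, from 285, 287 and 254 TPM through 139 and 167 TPM to 69.3 and 61.5 TPM (log2 -1.99 ± 0.131, adjusted p = 6.17e-05), with no overlap between any groups. Among 10 chromatin proteins that pocket proteins recruit, 4 rose and 1 fell (median 0.11), beside the same shares of all genes. Without high-STRA8 replicate 1 or replicate 2 the number that rose was 2, and without replicate 2 none fell. Kdm5a, a histone demethylase first found as an RB-binding protein, rose 1.84-fold (adjusted p = 0.000627), Suv39h1, a histone methyltransferase, 1.41-fold (0.00355) and Rbbp7, a histone chaperone, 1.35-fold (0.00524).

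G1-S genes known as E2F targets rose in the largest share among the 5 lists. Of 33 such genes, 29 rose from Stra8-deficient to high-STRA8 cells and 4 were not called (median log2 fold change 1.31), where 18.9% of all genes rose. In low-STRA8 against Stra8-deficient cells 25 were higher (median 0.69), where 10.2% of all genes were. In high-STRA8 against low-STRA8 cells 18 were higher (median 0.58), where 21.3% of all genes were, and fewer without high-STRA8 replicate 2. In each of these 2 comparisons 1 gene was called lower, Dnmt1 and Cdt1. The Dnmt1 call ended without any library other than Stra8-deficient replicate 1, and the Cdt1 call ended without low-STRA8 replicate 2 or either high-STRA8 library. Cdc6, which loads the replicative helicase, was measured at 11.6, 13.4 and 11.8 TPM, then 63.9 and 45.8 TPM, then 85.5 and 72.0 TPM. Most of its 6.78-fold rise lay in the first step, 5.09-fold (adjusted p = 0.000511), and the second was 1.33-fold (adjusted p = 0.0587). Prim1, the primase subunit, rose 10.8-fold overall (adjusted p = 5.57e-05), 3.73-fold at the first step and 2.88-fold at the second. Slbp, which binds the ends of histone mRNAs, rose 3.46-fold overall (adjusted p = 5.87e-05). An E2F word within 200 bases of a TSS was found in 17 of the 33 (51.5%). The share was 6.59% over expressed genes and 12.1% over all genes that rose from Stra8-deficient to high-STRA8 cells. FLAG summits in at least 2 libraries were found at 18 (54.5%). That share was 22.5% over expressed genes and 56.7% over genes that rose in that comparison. The list was drawn up as known E2F targets, so its share of words is not independent of that choice.

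G2-M genes, which the DREAM complex of E2F4, p130 or p107 and MuvB is known to repress, split. Of 15, 5 rose and 7 fell from Stra8-deficient to high-STRA8 cells (median -0.14), and 7 rose and 6 fell from low-STRA8 to high-STRA8 cells (median 0.082). From Stra8-deficient to low-STRA8 cells, 7 fell and 8 were not called (median -0.41). Over all genes, 18.9% rose and 18.3% fell, 21.3% rose and 18.2% fell, and 10.2% rose and 13.9% fell in these comparisons. The 5 became 3 without high-STRA8 replicate 2. The last 7 became 4 without low-STRA8 replicate 2 or either high-STRA8 library, and 3 with the replicate block. Mki67, the Ki-67 proliferation marker, was measured at 18.6, 17.5 and 15.9 TPM, then 2.38 and 2.75 TPM, then 49.2 and 58.5 TPM. It was lowest in low-STRA8 cells and 19.7-fold higher in high-STRA8 than in low-STRA8 cells (log2 4.30 ± 0.157, adjusted p = 2.34e-05). Ccnb1 (cyclin B1) and Plk1 (polo-like kinase) fell at both steps, Ccnb1 from 50.8, 49.1 and 64.2 TPM to 36.4 and 29.5 TPM and then to 10.8 and 11.7 TPM. Plk1 went from 22.4, 18.8 and 24.8 TPM to 10.6 and 11.5 TPM and then to 3.96 and 3.02 TPM.

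**Figure D5:**
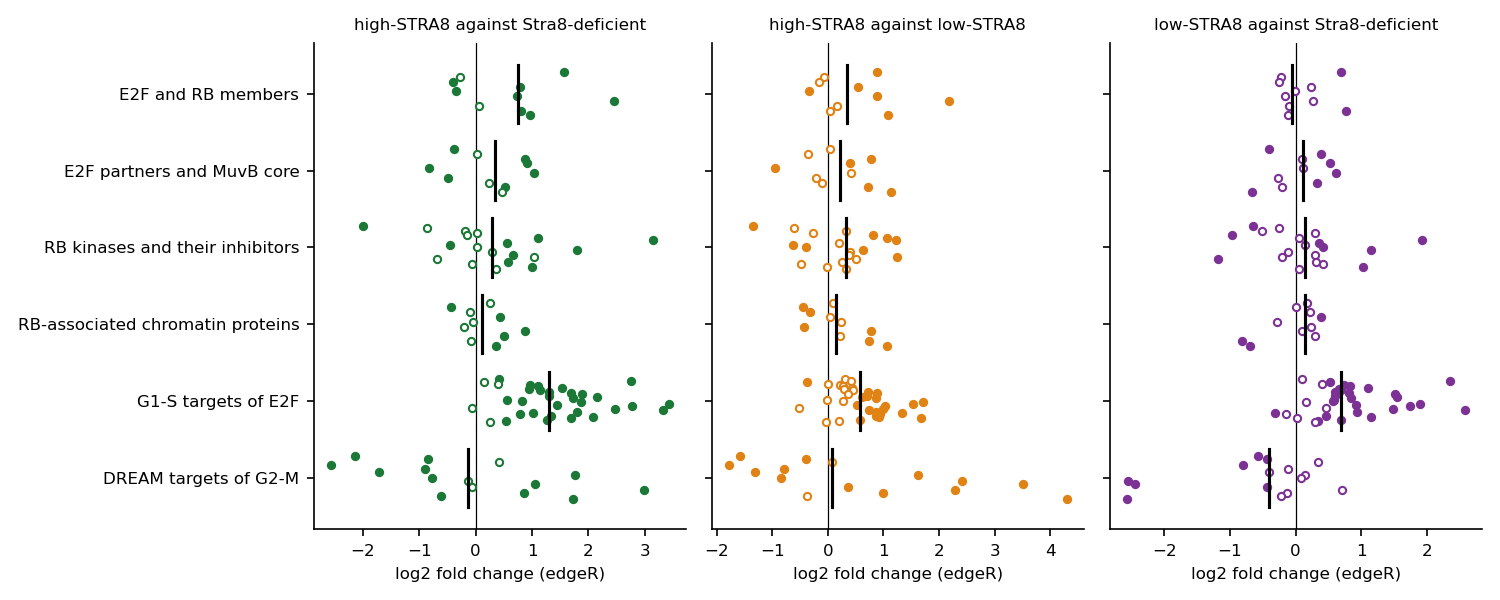
Log2 fold change by edgeR (x axis) of each gene of the members and the 5 lists in the 3 comparisons, with filled points for an adjusted p under 0.05, open points for the rest and a black line at each list's median. The G1-S genes lie mostly to the right of 0, with medians of 1.31, 0.58 and 0.69, and the G2-M genes lie on both sides.

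The genes whose pattern over the 7 libraries was most like that of E2f1 were Orc1, Enkd1, Apcdd1, H1fx and Zfp959. Their log2 CPM (counts scaled to library size), centred on each gene's mean, differed from that of E2f1 by a root mean square of 0.098 to 0.132, where the median over 12445 genes was 0.766. Orc1, a subunit of the origin recognition complex, averaged 31.1 TPM in Stra8-deficient, 47.7 TPM in low-STRA8 and 94.3 TPM in high-STRA8 cells. For E2f3, the member with the most negative fold change, the closest genes were Cwf19l2, Btg1, Zdhhc17, Zfp810 and Gprasp1, at 0.051 to 0.057, where the median was 0.370.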

How the data were processed

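Preleptotene RNA was profiled in 7 libraries and FLAG chromatin in 6, and each sample was grouped from its title. Per the labels and the study's methods, the authors estimated transcript counts with kallisto 0.43.0 (deposited estimated counts and TPM), summed protein-coding transcripts by gene into deposited TPM, and deposited a normalized signal from DESeq2 1.18.1. The authors called summits on mm10 with Bowtie 1.2.0 and MACS2 2.1.1.20160309 and deposited their −log10 p scores. Input libraries were not used here.

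Here, 75554 of 75737 transcripts were matched to GENCODE M21 and summed by gene, accepted where the summed TPM met the authors' value within 0.2% or 0.003 TPM. Of 12545 genes over 1 TPM in at least 1 library, 90 could not be joined and 12455 were tested. Estimated counts, rounded to whole numbers, entered edgeR 4.0.16 (TMM, robust quasi-likelihood, 1 fit over 7 libraries with 3 contrasts) in R 4.3.3 with Benjamini-Hochberg adjustment at 0.05. Alternatives used DESeq2 1.42.0, limma 3.58.1, other filters, each library left out and a replicate block. The edgeR, DESeq2 and limma fits were tested on simulated counts, for high-STRA8 against Stra8-deficient cells only and with the same dispersion for all genes. P-values weigh each difference against the spread between these libraries, which is shared over the groups and drawn toward that of other genes. Summits and motifs were counted in Python 3.11.15 around the TSSs of protein-coding transcripts.

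The rule for the members uses symbols only, but the members, lists and tests were chosen with earlier results of these data known. Named are all members, up to 3 genes of each list with the smallest adjusted p in high-STRA8 against Stra8-deficient cells, and the 5 genes most alike to E2f1 and to the member with the most negative fold change. E2f6, Lin37, Lin54, Dnmt1, Cdt1, Ccne1, Cdk2, Cdk7, Cdkn1a, Cdkn2a and Cdkn2c fall outside this rule and were named after their values were seen. So were Hbb-bs, Hba-a1 and Clu. A further motif match is not reported here.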

Additional observations from a re-analysis of the deposited data

How the results depend on the processing

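Over 17 alternatives for each of the 10 members and 3 comparisons (507 values in all, since E2f8 has none with the filter at 5 TPM), 441 kept their direction and their side of the threshold, 47 lost their call, 6 gained one and 13 changed sign. E2f1, E2f4 and Rbl1 kept their calls for high-STRA8 against Stra8-deficient cells under every alternative. E2f8 kept its call in the 16 run for it. Except for the fit with no filter on TPM, these used the filter that it passed through its high-STRA8 libraries alone. Leaving out 1 library in turn gave 4 to 6 members higher and 0 to 2 lower in that comparison, 2 to 5 higher and 0 to 1 lower for high-STRA8 against low-STRA8 cells, and 1 to 2 higher for low-STRA8 against Stra8-deficient cells. With 1 library left in a group, that library was taken to vary like the others. With a filter at 5 TPM, 3 members were higher in high-STRA8 than in low-STRA8 cells, E2f8 not being tested, and 1 was higher in low-STRA8 than in Stra8-deficient cells. With limma on log2(TPM + 1) or log2(TPM + 0.1), 0 members were lower for high-STRA8 against low-STRA8 cells, and 1 was higher and 1 lower for low-STRA8 against Stra8-deficient cells. The single lower member for high-STRA8 against low-STRA8 cells, E2f5, was also lost (0 members) with limma on the normalized signal, with no filter on TPM and with the replicate block.

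Same-numbered libraries showed no positive correlation of their deviations from the group means (-0.167 to -0.0268), and other-numbered ones correlated at -0.0274 to 0.167. In groups of 2 libraries the deviations mirror each other, so the 2 ranges are not independent and do not settle the pairing. With the replicate block, 5 members were higher and 2 lower for high-STRA8 against Stra8-deficient cells, 4 and 0 for high-STRA8 against low-STRA8 cells, and 1 and 0 for low-STRA8 against Stra8-deficient cells. With the low-STRA8 numbers crossed, an alternative added after seeing the data, the counts were 6 and 2, 5 and 1, and 2 and 0.

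No value that changed sign was called with all libraries. Rb1 for high-STRA8 against Stra8-deficient cells took log2 fold changes of -0.037 and -0.045 without Stra8-deficient replicates 2 and 3, -0.026 with the replicate block and -0.030 with crossed numbers. E2f2 for high-STRA8 against low-STRA8 cells took 0.036 and 0.037 with limma on TPM. For low-STRA8 against Stra8-deficient cells, E2f5 took 0.021 with limma on the normalized signal, 0.060 without Stra8-deficient replicate 1 and 0.0006 without low-STRA8 replicate 1, E2f7 took 0.024 without low-STRA8 replicate 2, E2f8 -0.32 without low-STRA8 replicate 1, Rb1 0.13 without Stra8-deficient replicate 1 and Rbl2 0.36 without low-STRA8 replicate 2. Leaving out 1 library gave ranges of -0.045 to 0.29 for Rb1 in high-STRA8 against Stra8-deficient cells and, for low-STRA8 against Stra8-deficient cells, of -0.052 to 0.060 for E2f5, -0.37 to 0.024 for E2f7, -0.32 to 0.69 for E2f8, -0.20 to 0.13 for Rb1 and -0.86 to 0.36 for Rbl2. The cause of these changes was not tested.

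FLAG summits in at least 1 of 3 libraries were found at 8 members, in 3 of 3 at 2, with a score of 10 or more at 3, and leaving out 1 FLAG/FLAG library gave 2 to 5. CNCCTCAG was found at 1 member in 400 bp and the shorter core CCTCAG at 8 in 2 kb. Over all genes, leaving out a high-STRA8 library gave fewer calls: 1278 to 1405 higher and 775 to 1003 lower against Stra8-deficient cells, and 1216 to 1589 higher and 527 to 1010 lower against low-STRA8 cells. For low-STRA8 against Stra8-deficient cells, limma on log2(TPM + 1) gave 495 higher and 2684 lower, against 1266 and 1726 by edgeR. Groups of 2 libraries limit the precision of every comparison.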
